A study of Gossypium hirsutum with 3 samples.

Results

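Contig23, a gene described as a soluble acid invertase, and TMIRS_141_E06.F, a gene described as a member of the invertase/pectin methylesterase inhibitor family, were followed in developing cotton (Gossypium hirsutum) fiber. The names are those of the array, and the descriptions are best protein matches given by the study. These 2 of the 11143 genes on the array were selected on the measured ratio of 10 dpa to 1 dpa fiber and on signal level from the same arrays (dpa, days post anthesis). Their ratios are therefore given as a description, with no test. Contig23 had 4 probes and TMIRS_141_E06.F had 3, each spotted once per array, and every spot of both genes was used.

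The 10 dpa fiber was elongating fiber dissected from the ovule, and the 1 dpa fiber was fiber initials shaken with glass beads from frozen ovules pooled over many bolls. Both came from field grown plants (the methods name DES119 and ST4793R, without saying which gave which RNA), and both were used as polyribosomal RNA, which is RNA bound to ribosomes, although the sample labels say total RNA. Each of 3 oligonucleotide arrays was hybridized with cDNA of both stages, labelled with the dyes Cy3 and Cy5, so each array gave its own ratio. The 10 dpa cDNA carried Cy5 on replicates 1 and 3 and Cy3 on replicate 2.

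Replicate numbers 1 to 3 only name the arrays. The array files coded replicates 1 and 3 with the same 10 dpa RNA and replicates 1 and 2 with the same 1 dpa RNA, so part of the spread between arrays can be technical. The methods instead describe 3 biological replications of each tissue from different harvest days, and this difference was not resolved. The test used below treats the 3 arrays as independent, so its p-values may be too small if RNA was shared. Log2 ratios of 10 dpa over 1 dpa fiber correlated across genes, which are not independent replicates, at 0.839 between replicates 2 and 3, and at 0.575 and 0.601 between replicate 1 and the other two. The median gene spot read between 234 and 357 scanner units in 10 dpa fiber, and between 222 and 362 units in 1 dpa fiber. Every spot of 5 genes known from young fiber (a beta-tubulin, GhRDL, MYB109, MYB2 and an alpha-expansin) lay above background in both stages on all 3 arrays. Background here means the signal that 95% of the negative control spots of the same array and stage stay below. Between 81.2 and 91.4% of all gene spots in 10 dpa fiber, and between 86.0 and 92.2% in 1 dpa fiber, also lay above it, so these genes say little about the tissue. RNA came from whole harvests, so fewer cells and less RNA per cell cannot be told apart. Stage and the way fiber was isolated went together, so these cannot be told apart either. If the RNA was polyribosomal, as the methods say, the ratios are of RNA on ribosomes and not of all transcript.

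Each cotton fiber is a single cell of the seed coat that elongates without dividing. Invertases split sucrose into glucose and fructose. The soluble acid form works in the vacuole, where hexoses act as osmotic solutes, while cell wall acid invertase works outside the cell and alkaline/neutral invertase in the cytosol and organelles. Proteins of the inhibitor family are small and bind either acid invertase or pectin methylesterase, an enzyme that removes methyl groups from wall pectin. The family name does not say which enzyme a member binds, and binding by TMIRS_141_E06.F was not measured.

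The acid invertase gave a stronger signal in 10 dpa fiber with every probe on every array. Its probe 1 read 991, 417 and 498 scanner units in 10 dpa fiber of replicates 1, 2 and 3, against 298, 218 and 195 in 1 dpa fiber. Probe 2 read 2022, 715 and 983 in 10 dpa fiber, against 492, 304 and 279 in 1 dpa fiber. These are mean spot intensities before any correction, and for both probes the lowest 10 dpa signal was above the highest 1 dpa signal. Probe 3 read 2502, 1178 and 1444 in 10 dpa fiber, against 468.5, 459 and 378 in 1 dpa fiber. Probe 4 read 4049, 1427 and 1755.5 in 10 dpa fiber, against 1136, 562 and 476 in 1 dpa fiber. The stages did not overlap with these probes either, and both stages were brightest on replicate 1 with all 4 probes. Selection on this ratio and on signal favours such a gap, and the share of all probes without overlap was not counted. All 12 spots exceeded background in both stages, so the invertase was measured, and not only bounded, on both sides of the comparison. On each array the spot nearest to background was that of probe 1 in 1 dpa fiber, at 1.60, 2.92 and 2.11 times background on replicates 1, 2 and 3.

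The inhibitor family gene gave the opposite picture, with a weaker signal in 10 dpa fiber at all 9 spots. Its probe 1 read 195, 121 and 130 scanner units in 10 dpa fiber of replicates 1, 2 and 3, against 337, 179 and 163 in 1 dpa fiber. This was the probe closest to background, at 1.46, 1.28 and 1.82 times background in 10 dpa fiber and 1.80, 2.40 and 1.77 times in 1 dpa fiber. Within each array it was still lower in 10 dpa fiber, but the ranges of the 2 stages overlapped across arrays. Probe 2 read 654, 353 and 390 in 10 dpa fiber, against 940, 1334 and 642 in 1 dpa fiber. Probe 3 read 1346, 426 and 770 in 10 dpa fiber, against 3803, 2177 and 1584 in 1 dpa fiber. Probe 3 alone of these did not overlap between stages across arrays, while probe 2 overlapped because 10 dpa fiber of replicate 1 (654) passed 1 dpa fiber of replicate 3 (642). As with the invertase, the gene was selected on this ratio, so nothing is read from the gap at probe 3.

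**Figure D1:**
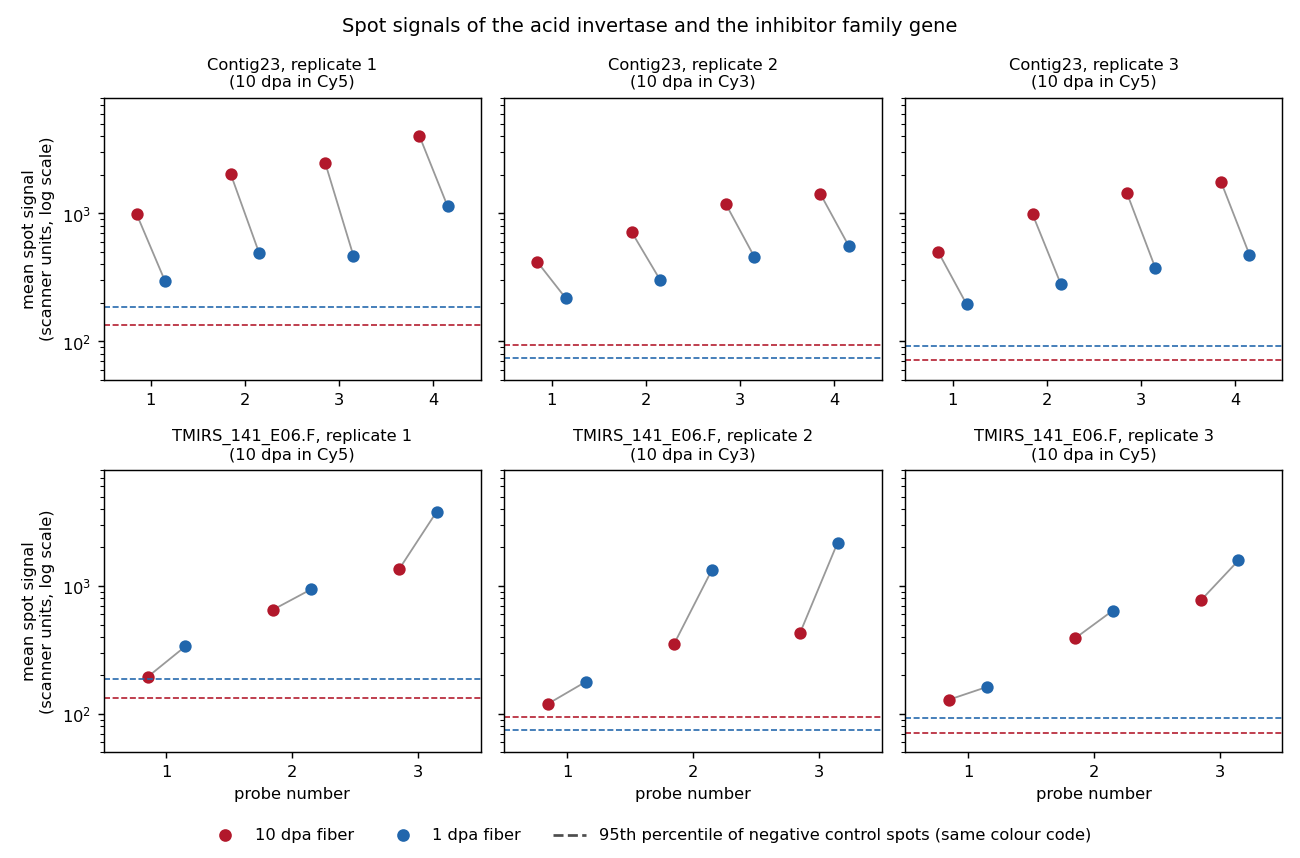
Mean spot signal in scanner units (log scale) of each probe of Contig23 (top) and TMIRS_141_E06.F (bottom) on each array, with 10 dpa fiber in red and 1 dpa fiber in blue, lines joining the stages of one spot and dashed lines at the background (95% of negative control spots lie below it) of the stage in the same colour. The 10 dpa point is higher at all 12 invertase spots and lower at all 9 spots of the inhibitor family gene.

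Signals were corrected for local background and normalized for dye within each array before ratios were taken, and the probes of a gene were then averaged. On the log2 scale, where 1 is a doubling, Contig23 stood at 1.81, 1.58 and 1.60 for 10 dpa over 1 dpa fiber on replicates 1, 2 and 3. The mean was 1.66 ± 0.13 (SD, n = 3 arrays), a 3.17-fold higher level in 10 dpa fiber. The 3 arrays gave 3.52-, 2.98- and 3.03-fold, so the replicates differed little beside the size of the ratio.

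TMIRS_141_E06.F stood at log2 ratios of -1.18, -1.39 and -0.83 on replicates 1, 2 and 3. The mean was -1.13 ± 0.28 (SD, n = 3 arrays), a 2.19-fold lower level in 10 dpa fiber. The arrays ranged from 1.77-fold lower on replicate 3 to 2.62-fold lower on replicate 2, so the sign was shared and the size less closely held than for the invertase.

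Both ratios lay outside the bulk of the array, as their selection implies. The median log2 ratio over all 11143 genes was -0.04, with 5% of genes below -0.66 and 5% above 0.85. A ratio of at least 2-fold with the same sign on every array was found for 3.59% of genes on the higher side in 10 dpa fiber and for 1.97% on the lower side. The invertase is in the first set and the inhibitor family gene in the second. Both genes were chosen on this contrast, so nothing is read from their membership.

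The probes of each gene shared a sign but not a size. For the invertase, probe means of the log2 ratio were 1.44 ± 0.34, 1.71 ± 0.14, 1.91 ± 0.27 and 1.59 ± 0.22 for probes 1 to 4 (SD, n = 3 arrays). Log2 ratios of single spots ran from 1.20 to 2.23. The order of the 4 probes was not stable, since probe 4 was the lowest on replicate 1 (1.34) and the highest on replicate 2 (1.77), and the 4 means, with an SD of 0.20 between them, differed by about as much as one probe did between arrays.

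For the inhibitor family gene the probes stood further apart than the arrays. Probe means of the log2 ratio were -0.51 ± 0.21, -1.10 ± 0.42 and -1.79 ± 0.41 for probes 1 to 3 (SD, n = 3 arrays), which is 1.42-, 2.14- and 3.46-fold lower in 10 dpa fiber. The same order held on each array. Probe 1 read -0.64, -0.62 and -0.26 on replicates 1 to 3, probe 2 read -0.82, -1.57 and -0.90, and probe 3 read -2.08, -1.97 and -1.32. The SD between probe means was 0.64, against 0.28 between arrays, so the gene's mean depends on which probes are averaged more than on which array is read. The probe nearest to background gave the smallest ratio, and the part of background, or of related transcripts binding to a probe, in this spread was not tested.

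**Figure D2:**
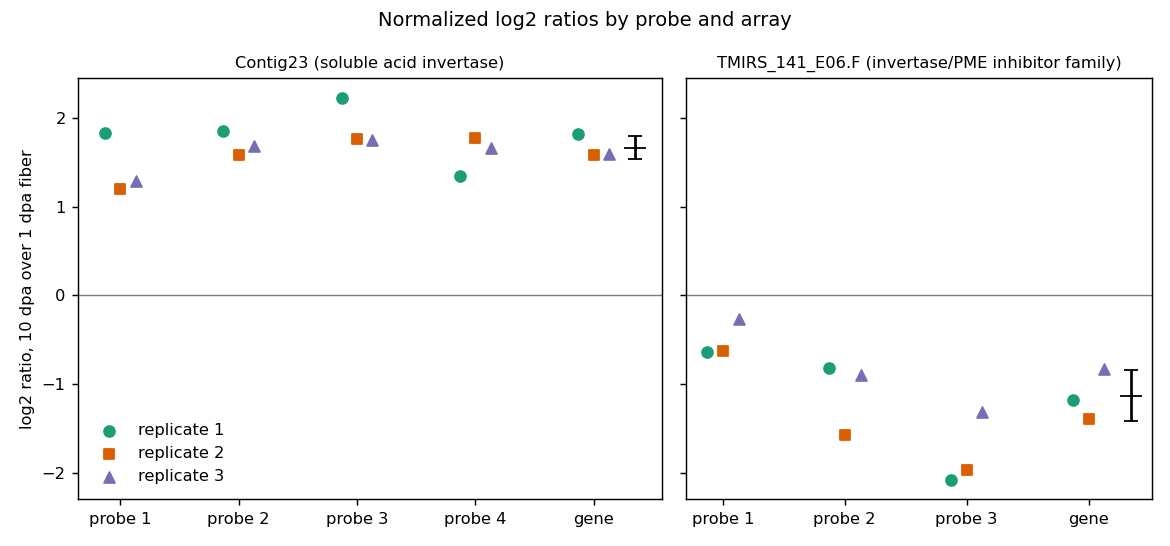
Normalized log2 ratio of 10 dpa over 1 dpa fiber for each probe and for the mean of probes (gene), with one symbol per array and, beside the gene, a bar for the mean ± SD over 3 arrays. Invertase probes scatter around one level between 1.20 and 2.23, while the 3 probes of the inhibitor family gene step down from probe 1 to probe 3 on each array.

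Because both genes were read on the same arrays, the gap between them can be taken array by array. The log2 ratio of Contig23 minus that of TMIRS_141_E06.F was 2.99, 2.97 and 2.42 on replicates 1, 2 and 3, with a mean of 2.79 ± 0.32 (SD, n = 3 arrays). As folds, the invertase shifted against the inhibitor family gene by 7.96, 7.82 and 5.36 between the stages. This is a difference between 2 changes and not a ratio of transcript amounts, since signals of different probes cannot be compared. Both genes were selected on the ratio that enters the gap, so nothing is read from its sign or size. The size also depends on the probes averaged, as probe means of the inhibitor family gene ran from -0.51 to -1.79. The replicates with the widest gap were those that carried the same 1 dpa RNA code.

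The dye exchange gives a view of the ratios with local background subtracted and no normalization. Contig23 was 3.69- to 5.94-fold higher in 10 dpa fiber on replicate 1 and 3.00- to 4.22-fold higher on replicate 3, where 10 dpa cDNA carried Cy5, and 2.10- to 2.71-fold higher on replicate 2, where it carried Cy3. TMIRS_141_E06.F was 1.45- to 2.88-fold and 1.35- to 2.11-fold lower in 10 dpa fiber on replicates 1 and 3, and 1.87- to 5.64-fold lower on replicate 2. Before normalization, the Cy5 arrays thus gave larger rises for the invertase, the Cy3 array gave the largest fall of the inhibitor family gene, and both directions were present with either dye. With one exchanged array, dye and array cannot be told apart in these uncorrected values.

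The array held another soluble acid invertase, Contig14272, and an alkaline/neutral invertase, TMIRS_027_D12.F. Neither was used to select the 2 genes above, but both came, like every list below, from descriptions of genes that the study had picked on these samples, so their counts are not independent evidence of direction. Genes were tested with limma's moderated test of the log2 ratio against 0, and the Benjamini-Hochberg adjustment took in the p-values of all 11143 genes. Of all genes, 8.03% passed an adjusted p of 0.05 as higher in 10 dpa fiber and 5.61% as lower. Both invertases passed as higher, with a median log2 ratio of 1.17.

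Contig14272 read 7165 to 52683 scanner units in 10 dpa fiber over its 4 probes and 3 arrays, against 1988 to 14707 in 1 dpa fiber. These ranges overlap across probes and arrays, while at each single spot the signal was higher in 10 dpa fiber. Its log2 ratios were 1.25, 0.85 and 0.52 on replicates 1, 2 and 3, with a mean of 0.87 ± 0.37 (SD, n = 3), 1.83-fold, and a limma adjusted p of 0.0215. The call was lost when arrays were centred on the median in place of loess (1.15, limma adjusted p = 0.0778). With no normalization the gene was only 1.14- to 1.24-fold higher on replicate 2, against 3.59- to 6.06-fold on replicate 1 and 1.84- to 2.07-fold on replicate 3.

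The alkaline/neutral invertase TMIRS_027_D12.F read 234 to 1637 scanner units in 10 dpa fiber, against 119 to 565 in 1 dpa fiber. Its log2 ratios were 1.52, 1.35 and 1.51 on replicates 1, 2 and 3, with a mean of 1.46 ± 0.09 (SD, n = 3), 2.75-fold, and a limma adjusted p of 0.00143. These 2 invertases and Contig23 were each higher in 10 dpa fiber on every array. Contig23 was selected on this ratio and the other 2 came from genes picked on these samples, so nothing is read about invertases as a class. How far probes of Contig23 and Contig14272 also bind each other's transcript was not tested.

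Most of the listed genes of sugar transport and use were higher as well. Of 6 such genes, 5 passed as higher and none as lower, beside 8.03% and 5.61% of all genes. Their median log2 ratio was 1.41, beside -0.04 over all genes. The list was drawn from genes that the study had picked on these samples, so nothing is read about the class as a whole. The 3 transporters passed: Contig13568, described as hexose transporter 6, had a mean log2 ratio of 1.30 ± 0.01 (limma adjusted p = 0.00189), another hexose transporter (5F_01-01-02R_E02_InvR_25Mar04_008.ab1) averaged 1.78 ± 0.48 (limma adjusted p = 0.00352), and the sugar transporter Contig2352 averaged 1.52 ± 0.26 (limma adjusted p = 0.00221). Such carriers move sugars across the plasma membrane or the tonoplast.

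Contig14996, a pyrophosphate-dependent phosphofructokinase that interconverts fructose phosphates in glycolysis, was 4.92-fold higher in 10 dpa fiber (log2 ratio 2.30 ± 0.11, limma adjusted p = 0.000642), with 10 of its 12 spots above background in 1 dpa fiber. Contig15847, similar to the enzyme that makes trehalose-6-phosphate, averaged a log2 ratio of 0.84 ± 0.22 (limma adjusted p = 0.0130), and its call was lost without replicate 3 (0.73, limma adjusted p = 0.0547). The exception was a sugar kinase of the ribokinase family, a family that includes fructokinases (GHCOT_4A_E11_T3_16Jul03_087.ab1). Its log2 ratio stood at -0.14, -1.59 and -0.83 on replicates 1, 2 and 3, with a mean of -0.85 ± 0.72 (SD, n = 3), and did not pass (limma adjusted p = 0.0964). Without replicate 1 it averaged -1.21 and passed as lower, and it also passed as lower without replicate 3 (-0.87), with plain background subtraction (-1.01) and with a dye term (-1.04). It did not pass without replicate 2 (-0.48). Fits without one array or with a dye term leave little from which to estimate a gene's spread, so nothing is read from those passes.

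In starch synthesis, 1 of 2 genes passed, as higher, beside 8.03% of all genes. The list median was 1.07, beside -0.04 over all genes. This list too was drawn from genes picked on these samples, so nothing is read about the class. The starch branching enzyme Contig2425, which adds branch points to the glucan, averaged a log2 ratio of 1.40 ± 0.64 (SD, n = 3, limma adjusted p = 0.0149). The granule-bound starch synthase Contig4287, which makes amylose, averaged a log2 ratio of 0.74 ± 0.49 and did not pass (limma adjusted p = 0.0634). It passed as higher when any one array was left out. Such a fit has only 2 arrays from which to estimate the gene's spread, so nothing is read from those passes.

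Pectin is the substrate around which part of the inhibitor family acts, and the vacuole is where soluble acid invertase works, so genes of both were read. Of 2 pectin-degrading enzymes, with a median log2 ratio of 0.76, the pectate lyase Contig4866, which cleaves demethylated pectin, passed as higher (1.20 ± 0.28, 2.29-fold, limma adjusted p = 0.0050), and the polygalacturonase-like Contig16638 did not pass (0.32 ± 0.40, limma adjusted p = 0.362). Of 6 listed vacuolar membrane genes, 4 passed as higher and none as lower, with a median log2 ratio of 0.93. Beside both lists, 8.03% of all genes passed as higher and 5.61% as lower, and the median over all genes was -0.04. Both lists came from genes that the study had picked on these samples, so nothing is read about either class. The water channels of the tonoplast, Contig6612 and Contig11002, stood at log2 ratios of 2.80 ± 0.12 and 2.83 ± 0.40 (limma adjusted p = 0.000614 and 0.000777). For Contig6612, 1 of its 4 probes was not above background in 1 dpa fiber on any array, so the size of its ratio is uncertain. Every spot of Contig11002 was above background in both stages, but its 3 spots per array all held 1 probe. Agreement between probes could therefore not be read for Contig11002. Subunits of the vacuolar proton pump had smaller log2 ratios: V-ATPase subunit D (Contig15752) at 1.04 ± 0.07 and subunit d (TMIRS_016_H12.F, also read by 1 probe) at 0.81 ± 0.09 passed as higher, and the 16 kDa proteolipid genes, Contig12609 and Contig882, at 0.35 ± 0.20 and 0.33 ± 0.41, did not (limma adjusted p = 0.173 and 0.344).

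Over the 5 lists, 13 of 18 genes passed as higher in 10 dpa fiber and none as lower, with mean log2 ratios from -0.85 to 2.83 and a median of 1.12. Of all genes, 8.03% passed as higher and 5.61% as lower, but the lists were drawn from genes picked on these samples. Their counts are therefore not independent evidence of direction. None of the 18 passed when arrays were also scaled to one spread, or with an F-test of each gene alone on these 3 arrays, although 16 and 11 of them had an unadjusted p under 0.05. The inhibitor family gene, at -1.13, lay below each of the 18, and the invertase, at 1.66, lay below 4 of them. Both genes were selected on this ratio, so nothing is read from these positions.

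**Figure D3:**
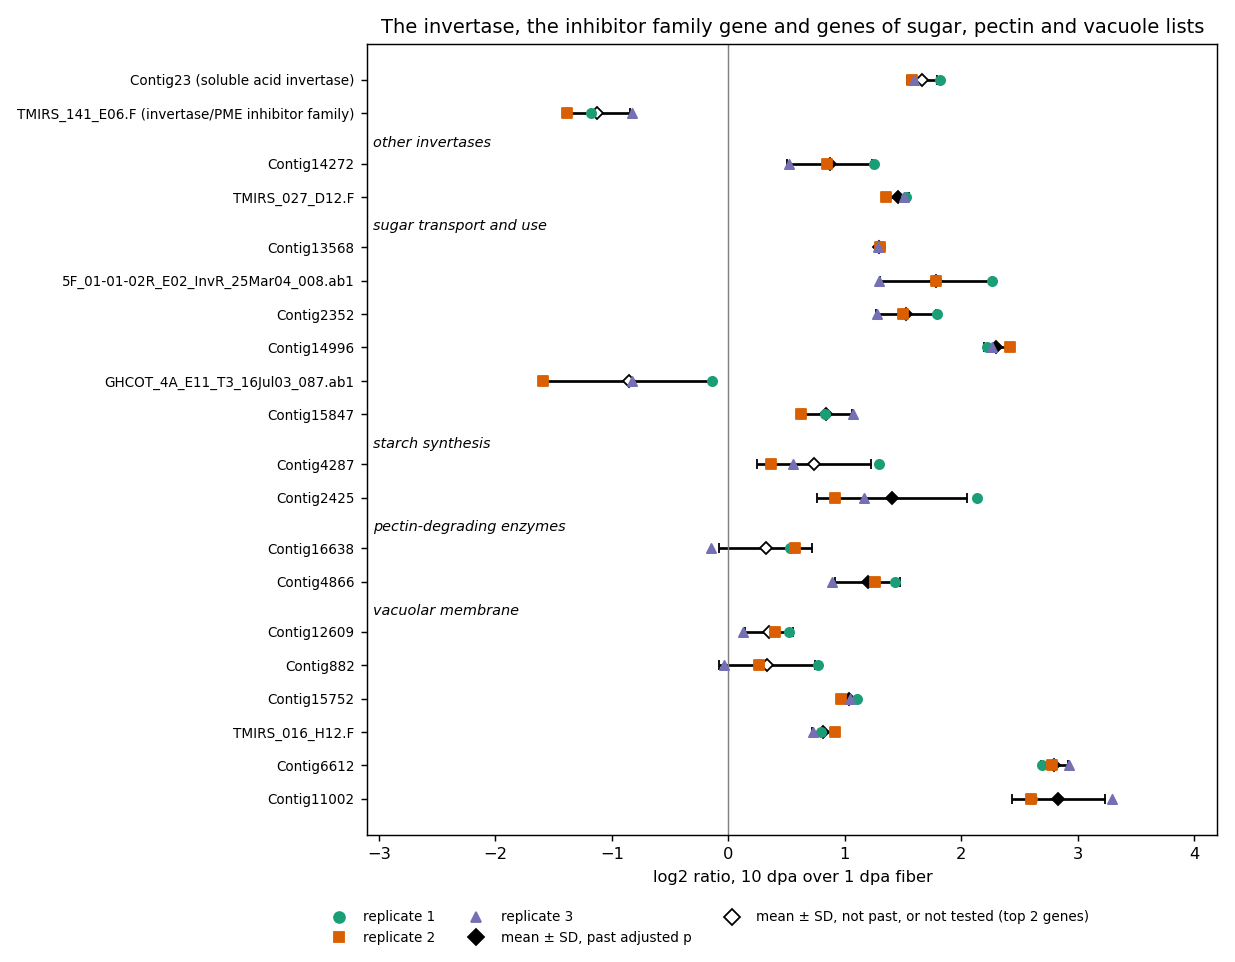
Log2 ratio of 10 dpa over 1 dpa fiber on each array (coloured symbols) with the mean ± SD over 3 arrays for Contig23, TMIRS_141_E06.F and the 18 listed genes, where a filled diamond marks a listed gene past an adjusted p of 0.05. Means of all listed genes but the ribokinase family kinase lie to the right of 0, and TMIRS_141_E06.F lies to the left of each of them.

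The genes most like each of the 2 were found by the root mean square difference of their 3 array ratios, as a description of likeness over 3 arrays only. Nearest to Contig23 were Contig2793 (expressed protein, difference 0.0333 on the log2 scale, mean log2 ratio 1.67), Contig15469 (unknown, 0.0755), Contig90 (expressed protein, 0.0888), TMIRS_100_F08.F (a putative glutathione S-transferase, an enzyme that joins glutathione to other compounds, 0.0900) and Contig219 (a beta-ketoacyl-CoA synthase, an enzyme of very-long-chain fatty acid synthesis, 0.115). None of the 5 is described as an enzyme of sucrose.

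Nearest to TMIRS_141_E06.F were Contig15400 (a match to mKIAA0324, difference 0.120 on the log2 scale, mean log2 ratio -1.20), Contig13096 (a putative cinnamoyl-CoA reductase, an enzyme of the lignin pathway, 0.125), Contig3036 (a putative leucine zipper protein, 0.125), Contig16226 (not described here, 0.133) and TMIRS_014_F10.F (a putative receptor-like protein kinase, 0.137). These differences were larger than those around the invertase, and none of the 5 is described as a pectin methylesterase or an inhibitor.

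The direction of both genes held under each of the 10 other ways of processing that were tried. The mean log2 ratio of Contig23 stayed between 1.59 and 1.76 and that of TMIRS_141_E06.F between -1.28 and -1.0, each within the SD over arrays of the reported mean. Leaving out an array or adding a dye term only reweights the same 3 array ratios, which share a sign. Those alternatives could therefore neither reverse the direction nor leave that SD. They gave the lowest value of Contig23 and both extremes of TMIRS_141_E06.F. The other alternatives began from spots that, for each gene, already shared a sign before normalization. Both genes were also selected on this ratio, so little is read from a direction that held. The gap between the genes stayed between 2.69 and 2.98, and the same limits hold for it.

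**Figure D4:**
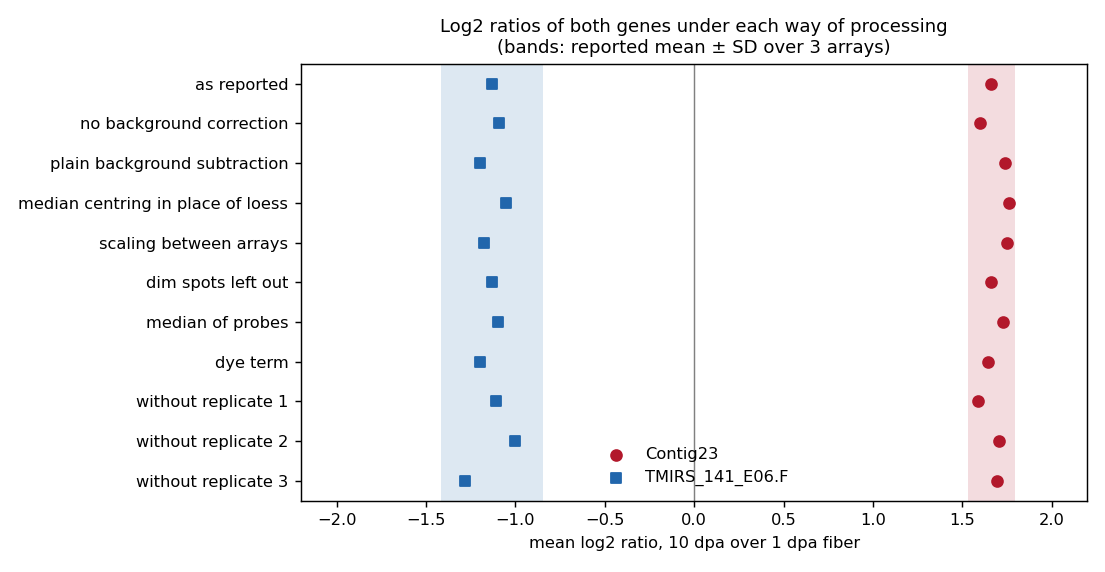
Mean log2 ratio of 10 dpa over 1 dpa fiber of Contig23 (circles) and TMIRS_141_E06.F (squares) as reported and under each other way of processing, with bands for the reported mean ± SD over 3 arrays. No point leaves the band of its gene, which the points for a left-out array or a dye term could not do.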

How the data were processed

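The authors deposited scanner files of 3 arrays with mean spot and mean local background intensity in both channels, neither background-subtracted nor dye-normalized. Per the methods, the authors made arrays of oligonucleotide probes for assembled cotton transcripts, labelled polyribosomal RNA and left scanning to a service company. A deposited value table (3 columns) was not used because its identifiers matched no probe. Ovule arrays were not used here. Background correction used limma's normexp with an offset of 50, and loess was run on each array with 2256 control spots at weight 0. The dye swap was turned, and 42034 gene spots were averaged to 40372 probes and 11143 genes. Ratios were tested with lmFit and eBayes and adjusted by the Benjamini-Hochberg method (R 4.3.3, limma 3.58.1, jsonlite 2.0.0). The number of arrays limits the precision.

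The procedure was tested on simulated data whose noise was drawn separately for each array. That simulation therefore cannot show what RNA shared between arrays does to the p-values. The study's own test used an ANOVA over further arrays. The genes named were the 2 selected genes, all 18 genes of 5 lists, and the 5 genes nearest to each selected gene. The genes and lists were chosen with earlier results of these data known. The alternatives were other background corrections, normalizations, filters, probe summaries, a dye term, an unmoderated F-test and leaving out each array. The alternatives for the gap between the 2 genes were added after seeing the data. No gene sequence or genome position was used here.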

Additional observations from a re-analysis of the deposited data

How the results depend on the processing

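For Contig23 and TMIRS_141_E06.F, no alternative changed the direction, which leaving out an array or adding a dye term could not do. Both genes were selected on this ratio, so little is read from that or from the gap below. Without one array the means were 1.59 to 1.71 and -1.28 to -1.0, and the gap was 2.70 to 2.98. Of all genes, 1520 passed limma's adjusted p of 0.05, 895 higher and 625 lower in 10 dpa fiber. With median centring 703 passed, 512 higher and 191 lower, and without one array 1250 to 2191 passed (without replicate 1, 979 higher and 1212 lower). With an unmoderated F-test of each gene alone on these 3 arrays, which is not the study's ANOVA, and likewise when arrays were scaled to one spread, 0 genes and 0 of the 18 listed genes passed, while an unadjusted p of 0.05 was passed by 1811 genes (11 listed) with the F-test and 2699 (16 listed) with scaling, beside 2773 (16 listed) in the reported limma fit. The listed genes that passed numbered 13 as reported, 14 to 15 without one array and 12 to 15 under the remaining alternatives. Fits without one array or with a dye term leave little from which to estimate a gene's spread, so nothing is read from their counts. The test was already paired by array, because both stages share each array and the tested value was their ratio. With 3 arrays and shared RNA codes, the spread between harvests is poorly known.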
